A study of Mus musculus with 3 samples.

Results

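The genes described here are the cadherins and the unclustered protocadherins of the mouse, 35 of the 21887 protein-coding genes on the primary chromosomes of the RefSeq gene table. The family was proposed with earlier results of these data known, and its members were then taken by name: every protein-coding gene whose symbol is Cdh or Pcdh followed by a number, with or without an x, so that the Pcdha, Pcdhb and Pcdhg clusters are left out. Of these, 23 are cadherins and 12 are protocadherins. Where the factors Tbx4 and Hoxc10 bound near them was read from chromatin immunoprecipitation with sequencing (ChIP-seq) of hindlimb buds at embryonic stage e11.5 (days of gestation) from mice of the CD1 strain, wild type in genotype. The Tbx4 sample was made with a homemade antibody and the Hoxc10 sample with an Abcam antibody, and each is represented by 1 list of peak summits, 4780 for Tbx4 and 1614 for Hoxc10. A further Hoxc10 sample, made with a Santa Cruz antibody, was not analysed here. Each group has 1 sample, so no difference below has a replicate check and no p-value is given. In whole buds, binding in fewer cells and weaker binding per cell cannot be told apart.

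Cadherins are calcium-dependent adhesion molecules that hold like cells together. The classical types carry a cytoplasmic tail that binds beta-catenin and, through alpha-catenin, the actin skeleton, while the protocadherins lack that tail and act more weakly, in adhesion and cell sorting. In the limb bud, mesenchymal cells gather into condensations before they form cartilage, and N-cadherin, the product of Cdh2, is known for its part in that step. Tbx4 is a T-box transcription factor of the hindlimb, and Hoxc10 belongs to the posterior group of the Hox proteins, which bind DNA through a homeodomain.

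A summit was counted for a gene when it lay inside the gene or between it and the next protein-coding gene, at most 1 Mb away. This stretch is called the domain of the gene, and a summit between 2 genes counts for both. The score beside each summit is the authors' MACS2 value on a −log10 scale, for which a p-value and a q-value cannot be told apart from the sources used here. It served only to rank and describe summits within 1 list, and its rank in the list counts from the highest score, with ties sharing a rank. The Tbx4 list had a median score of 3.67 and the Hoxc10 list one of 7.72. Read depth is unknown. The score levels of the lists were not compared, and the Hoxc10 list may have been limited to summits near peaks of the other antibody, as its name can be read.

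Summits of at least 1 factor lay at 22 of the 35 genes, a count for which no share over all genes was computed. Tbx4 summits lay in the domains of 19 members, 54.3% (exact 95% binomial interval 36.6 to 71.2%), where 17.2% of all protein-coding genes had one. Hoxc10 summits lay in the domains of 12 members, 34.3% (19.1 to 52.2%), against 6.83% of all genes. In 9 members both factors had a summit, against 5% of all genes, and in 3 members summits of both factors lay within 200 bp of each other, called shared below, against 2.66% of all genes. Another 10 members had Tbx4 summits alone and 3 had Hoxc10 summits alone, again without a computed share over all genes. The shares of all genes are not matched for domain length. For both factors together and for shared summits no like-length share was computed. The intervals cover counting error only and treat the genes as independent, which neighbouring genes are not.

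Domain length differed strongly between the members and all genes. Cadherin genes are long and often stand in gene deserts: the median domain of the members was 1543 kb, against 67.3 kb for all genes, and 22 members had a domain over 1 Mb, which 4.14% of all genes had. Each member was therefore set beside the 200 other genes nearest to it in domain length, 3193 distinct genes in all. Among these like-length genes 48.1% had a Tbx4 summit and 30.5% a Hoxc10 summit, which would give 16.85 and 10.665 members where 19 and 12 were found. The differences were 6.14 and 3.81 percentage points, and both like-length shares lay within the members' intervals. These differences depended on how a domain was drawn. With at most 100 kb beyond the gene they were -2.97 and -4.53 points. When predicted genes did not end a domain they were 17.2 and 15.6 points. The like-length shares were then 37.07 and 18.73%, the latter just below the members' interval. The comparison thus gives no stable difference in these shares between the family and other genes.

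Counted by summits, the family stood no higher. The members' domains covered 44.7 Mb and held 48 distinct Tbx4 summits, or 1.07 per Mb. The domains of the 3193 distinct like-length genes, each counted once, held 1.60 per Mb and those of all genes 1.80. For Hoxc10 there were 23 distinct summits, or 0.514 per Mb, against 0.628 and 0.604. Counted once each, the like-length genes do not have the members' mix of domain lengths, so these densities are not matched for length. The means per gene that follow are matched. A member had 1.46 Tbx4 summits on average, against 1.62 in like-length genes, and 0.657 Hoxc10 summits, against 0.672. Both lists were represented to a similar degree, with 1.004% of the Tbx4 list (0.741 to 1.33%) and 1.43% of the Hoxc10 list (0.905 to 2.13%) in these domains. Only 83 other genes have a domain over 2 Mb, so that the genes set beside the 12 longest members were in part shorter than them.

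**Figure D1:**
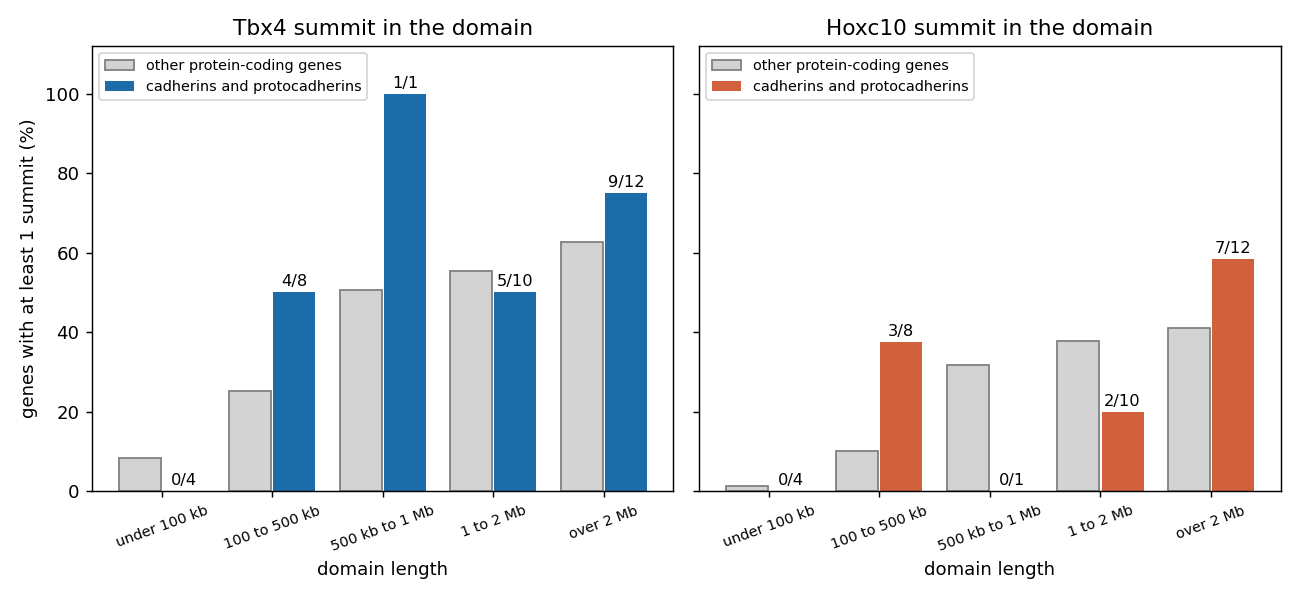
Percentage of genes with at least 1 Tbx4 summit (left) or Hoxc10 summit (right) in their domain, by domain length. Grey bars are all other protein-coding genes, coloured bars the cadherins and protocadherins, with the number of members above each. In both panels the share among other genes rises with domain length, from 8.19 to 62.7% for Tbx4 and from 1.21 to 41.0% for Hoxc10, and the members lie above it in some classes and below it in others.

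Within the family the counts were uneven. How evenly summits are spread over like-length genes was not measured, so this is not a trait particular to the family. Cdh2, Cdh11 and Pcdh18, picked here because their counts were the highest, held 20 of the 48 Tbx4 and 13 of the 23 Hoxc10 summits, or 46.5% of all 71. Another 13 members had none of either factor, among them Cdh7, Cdh18, Pcdh11x and Pcdh20 with domains of 1.91, 2.88, 1.98 and 1.93 Mb. Among the 4 members with domains under 100 kb (Cdh15, Cdh16, Cdh24 and Pcdh12), where 8.19% of other genes had a Tbx4 summit and 1.21% a Hoxc10 summit, no summit was found.

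**Figure D2:**
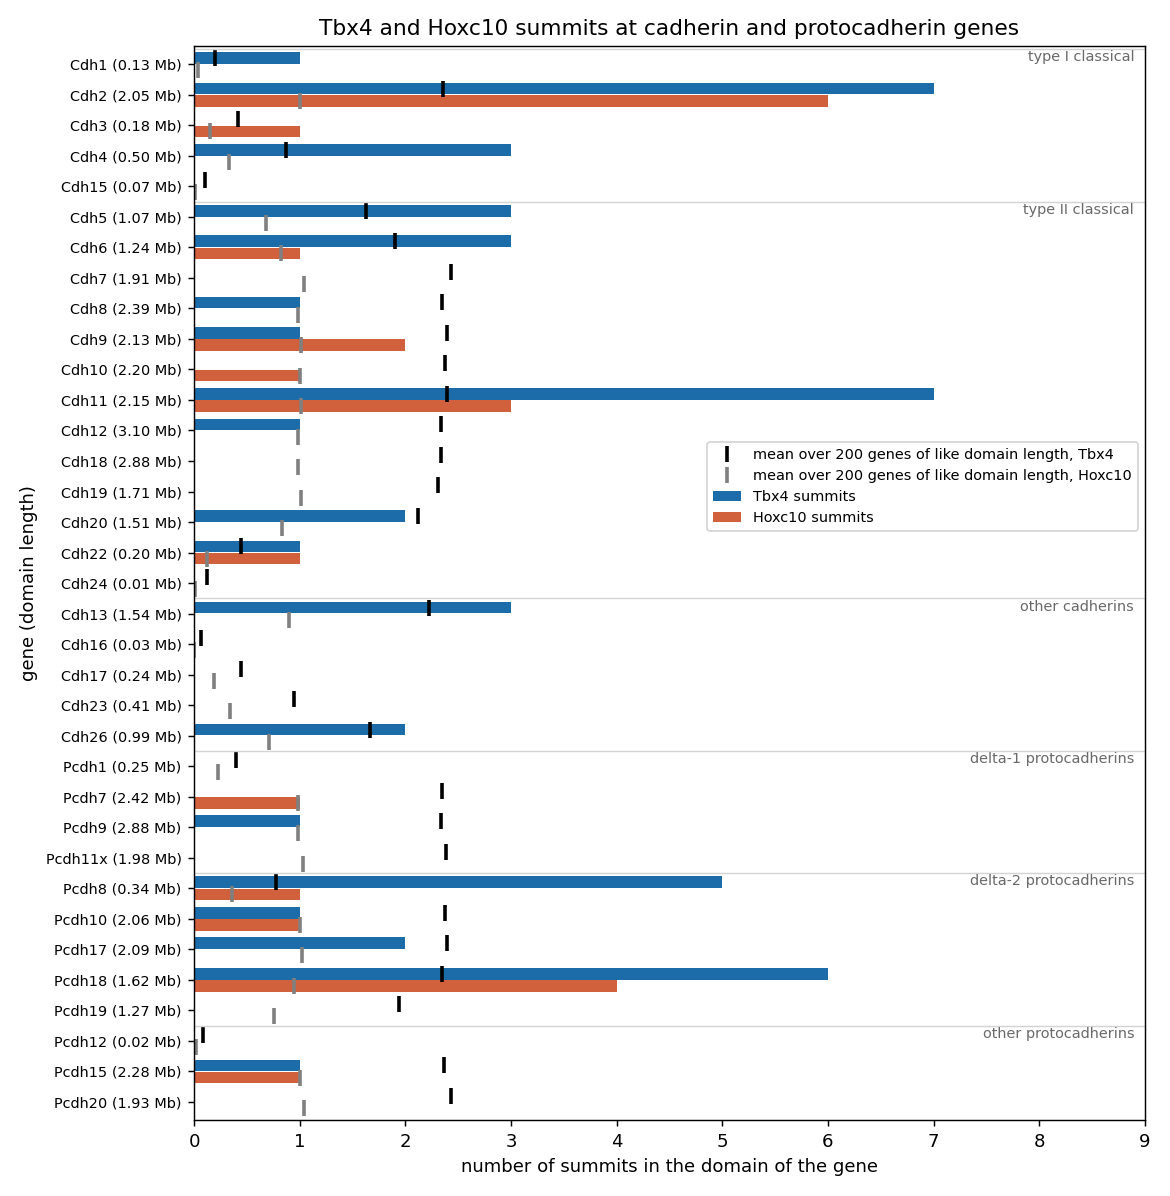
Number of Tbx4 (blue) and Hoxc10 (orange) summits in the domain of each of the 35 genes, grouped by class, with the domain length in Mb beside the name. Black and grey ticks give the mean number over the 200 genes nearest in domain length. Cdh2, Cdh11, Pcdh18 and Pcdh8 have the longest Tbx4 bars, with 7, 7, 6 and 5 summits, all past their tick. Cdh1, Cdh4, Cdh5, Cdh6, Cdh13, Cdh22 and Cdh26 also exceed theirs, with 1 to 3 summits, and the other members stay below it.

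The type I classical cadherins are the best known adhesion molecules of the family, and 3 of the 5 had Tbx4 summits and 2 had Hoxc10 summits, where like-length genes would give 1.59 and 0.765. Cdh2, on chromosome 18 from 16588877 to 16809246 of mm10, has a domain of 2.05 Mb between Chst9 and Dsc3. It held 7 Tbx4 and 6 Hoxc10 summits. Of the 200 like-length genes, 8.5% had as many Tbx4 summits or more, and 3.5% as many Hoxc10 summits.

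The highest summits of Cdh2 lay far below the gene, in the gap towards Chst9, and counted for that gene too. The Tbx4 summit at 16038162 scored 35.95, rank 74 of the list and the highest Tbx4 score of the family, and the Hoxc10 summit 92 bp away at 16038070 scored 14.69, rank 300. Both stood 551 kb from the lower end of Cdh2, within the non-coding gene Gm41673. Somewhat further down, within the non-coding gene Gm30512, a second pair missed the 200 bp limit: a Tbx4 summit at 16028928 (score 5.3) and a Hoxc10 summit at 16029222 (score 3.83) were 294 bp apart. The gap also held a Hoxc10 summit at 16211965, with a score of 7.72, and a Tbx4 summit at 16437782, with a score of 6.19.

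Inside Cdh2 the summits nearly coincided at 1 place. Tbx4 at 16649921 (score 9.15, rank 756) and Hoxc10 at 16649917 (score 5.69, rank 1038) were 4 bp apart, 61.0 kb from the lower end of the gene. Tbx4 had 3 more summits inside the gene, at 16658688 (6.19), 16689904 (2.26) and 16808680 (3.67), the last 566 bp from the upper end. On the upper side, towards Dsc3, Hoxc10 stood alone, with summits at 17383673 (8.43) and 17391208 (5.05). Of the 4 shared places of the whole family, 2 were thus at Cdh2.

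The other type I genes had few summits. Cdh4, which encodes R-cadherin, had 3 Tbx4 summits and no Hoxc10 summit, and 9% of like-length genes had 3 or more. All 3 lay inside the gene, the highest at 179687398 of chromosome 2, 212 kb from its upper end, with a score of 17.15 (rank 301), and the others scored 2.94 and 6.19. Cdh1 and Cdh3, neighbours on chromosome 8, encode E-cadherin and P-cadherin of epithelia such as the limb ectoderm. Cdh1 had 1 Tbx4 summit, at 106677901, 7654 bp above the gene and shared in domain with Tango6, with a score of 4.46 (rank 1883). Cdh3 had 1 Hoxc10 summit inside the gene, at 106516688, 5836 bp from its lower end, with a score of 7.02 (rank 868). Cdh15, the M-cadherin of muscle precursors, had none.

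Of the 13 type II cadherins, 8 had Tbx4 and 5 had Hoxc10 summits, where like-length genes would give 7.08 and 4.595. Cdh11, known for its expression in mesenchyme and in bone-forming cells, had the highest counts of both factors among the type II genes. It lies on chromosome 8 from 102632095 to 102785493, in a domain of 2.15 Mb between Cdh8 and Cdh5, with 7 Tbx4 and 3 Hoxc10 summits. Of its like-length genes, 8.5% had as many Tbx4 summits or more and 12.5% as many Hoxc10 summits.

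At Cdh11 the factors lay on opposite sides of the gene. The Hoxc10 summits were all below it, at 102027279 (17.26, rank 223), 102422230 (6.34) and 102499366 (6.34), between 133 and 605 kb from its lower end. The Tbx4 summits were all at or beyond its upper end: 1 at 102785249 inside the gene, 244 bp from that end, with a score of 2.26, and 6 above it. The highest of these, at 102984039, scored 17.15 (rank 301) and stood 199 kb from the gene. The others were at 102852896 (2.94), 102931608 (2.94), 103199851 (3.67), 103313699 (10.21) and 103784783 (5.3). No Tbx4 and Hoxc10 summits of this domain were closer than 285883 bp.

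The last 3 Tbx4 summits of Cdh11 lie in the gap to Cdh5, which encodes the VE-cadherin of endothelium, and they are also the only 3 Tbx4 summits counted for Cdh5. They stand 317 to 902 kb from Cdh5, and the highest, at 103313699 (rank 641), is nearer to Cdh11, at 528 kb against 788 kb. Cdh5 had no summit inside the gene and none of Hoxc10. The summit at 103784783 is the farthest one counted for any member, 999.3 kb from Cdh11. The nearest one left uncounted was a Hoxc10 summit with a score of 4.43, at 15700371 of chromosome 15, 1028 kb from Cdh9.

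**Figure D3:**
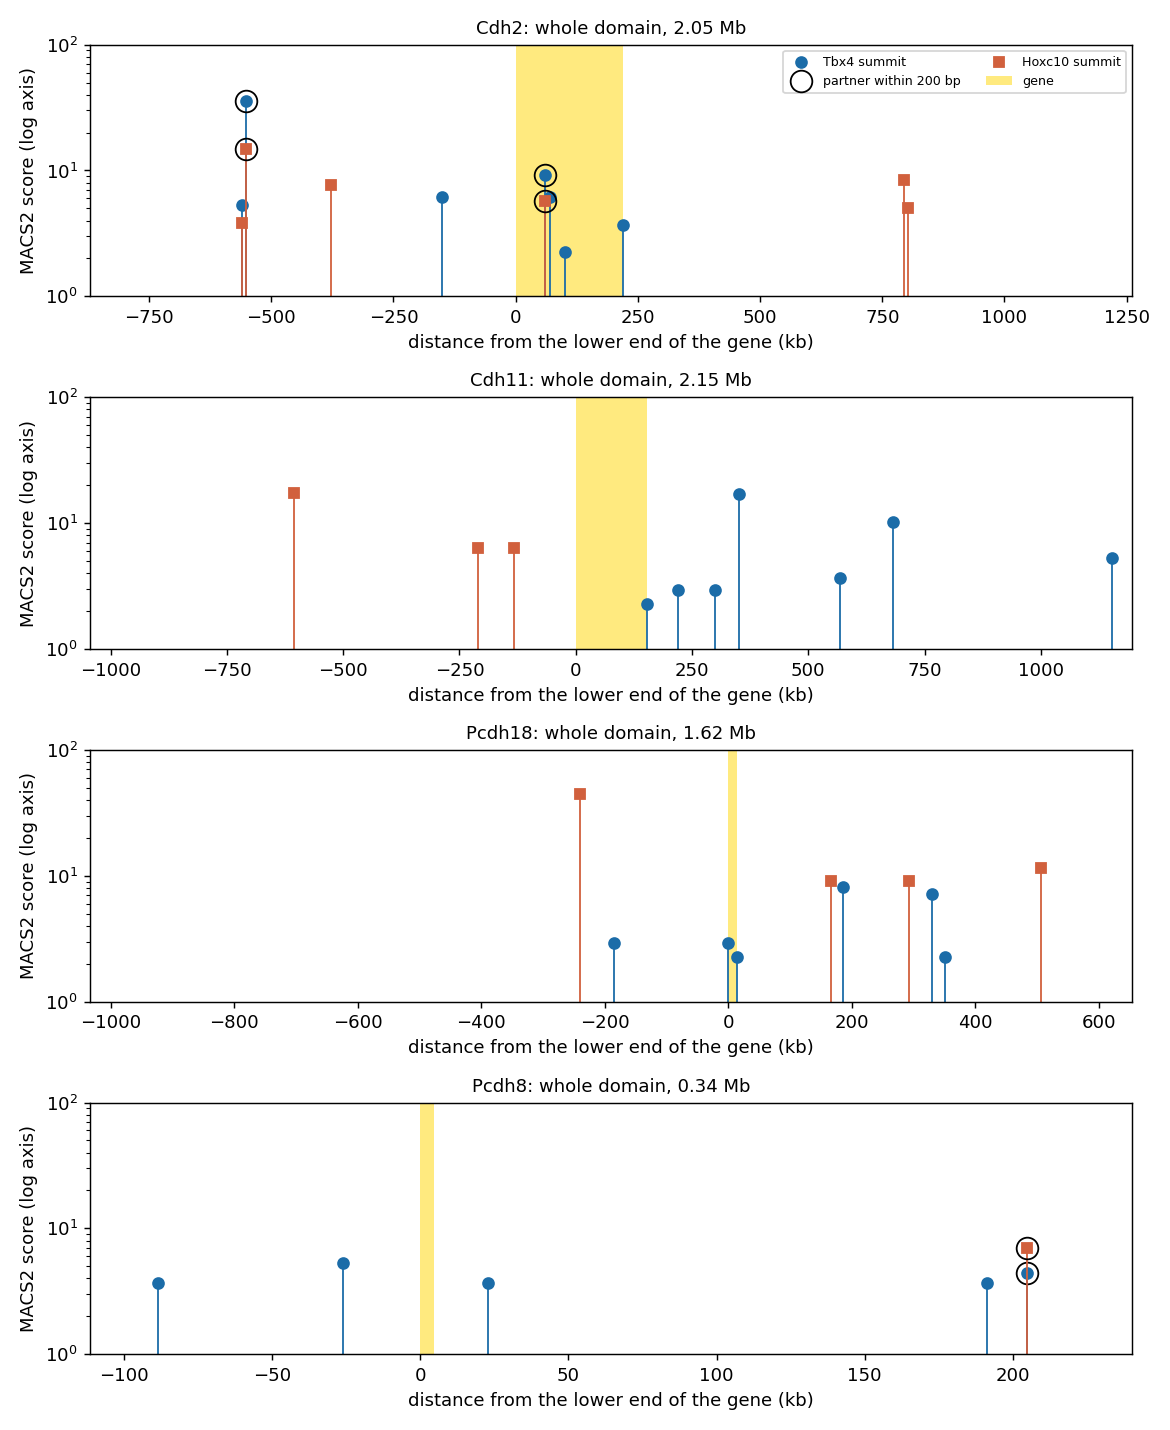
Summits in the domains of Cdh2, Cdh11, Pcdh18 and Pcdh8. The horizontal axis is the distance from the lower end of the gene in kb, the vertical axis the MACS2 score on a log axis, blue circles are Tbx4 and orange squares Hoxc10 summits, black rings mark summits with a partner within 200 bp, and the yellow band is the gene. Cdh2 has 2 shared places and Pcdh8 has 1, while at Cdh11 the 3 Hoxc10 summits lie below the gene and the 7 Tbx4 summits at or above its upper end.

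Another 5 type II genes stand side by side on chromosome 15, in the order Cdh6, Cdh9, Cdh10, Cdh12 and Cdh18, and they are known mostly from the nervous system and, for Cdh6, the kidney. Cdh6 had 3 Tbx4 summits, 2 of them at 13002828 (4.46) and 13003283 (5.3, rank 1506), 455 bp apart and also in the domain of Drosha, and 1 inside the gene at 13066945 (3.67). Its 1 Hoxc10 summit, at 14101999, scored 3.26 (rank 1451) and lay 926 kb away. Cdh9 had the only shared place of the type II genes, 233 kb below the gene and within the non-coding gene Gm41276, where the Tbx4 summit at 16495562 (6.19, rank 1240) was 114 bp from the Hoxc10 summit at 16495676 (9.16, rank 628). A second Hoxc10 summit of Cdh9, at 16641978, had the same score of 9.16. Cdh10 had 1 Hoxc10 summit at 19115194 (8.43, rank 709), 99.0 kb above the gene, and Cdh12 had 1 Tbx4 summit inside the gene at 21101980 (6.19, rank 1240). Cdh18, with a domain of 2.88 Mb, had none. Like-length genes averaged 1.91 Tbx4 summits for Cdh6, which had 3, and 2.34 to 2.39 for Cdh9, Cdh10, Cdh12 and Cdh18, which had 1, 0, 1 and 0. For Hoxc10 they averaged 0.825 to 1.01, and the 5 genes had 1, 2, 1, 0 and 0.

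The remaining type II genes had little. Cdh20 had 2 Tbx4 summits, at 104219411 (5.3) and 104220479 (6.19, rank 1240) of chromosome 1, 1068 bp from each other and 548 to 549 kb below the gene. Cdh8, a cadherin of brain circuits, had 1 Tbx4 summit at 99631211 of chromosome 8 (2.94, rank 2939), 214 kb above the gene and within the non-coding gene A330008L17Rik. Cdh22 was the smallest domain with both factors, 205 kb, and held a Tbx4 summit at 165177108 (5.3, rank 1506) and a Hoxc10 summit at 165196045 (10.67, rank 506), both inside the gene on chromosome 2 and 18937 bp apart. Cdh7 and Cdh19, the latter known from Schwann cell precursors, had none in domains of 1.91 and 1.71 Mb, and neither had Cdh24 in 12.6 kb.

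The other cadherins differ in build from the classical ones, and no Hoxc10 summit was found at any of the 5, where like-length genes would give 1.175 genes. Cdh13, whose product T-cadherin is held in the membrane by a lipid anchor in place of a tail, had 3 Tbx4 summits. The highest, at 118885056 of chromosome 8, lay inside the gene and scored 11.3 (rank 543). A second one inside it, at 118140485, was 468 bp from the lower end and scored 2.26. The third, below the gene, had the lowest score of the family, 1.63. Cdh26, a cadherin of epithelia, had 2 Tbx4 summits on its upper side, at 179082556 (3.67) and 179309640 (19.64, rank 241) of chromosome 2, 595 and 822 kb from the gene. The gene 4930591A17Rik lies between Cdh26 and Cdh4 and ends this domain, and both summits count for it too. Cdh16 of the kidney, Cdh17 of liver and intestine, and Cdh23 of the tip links of hair cells had none.

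Delta-2 protocadherins, which include the genes with the highest protocadherin counts, had Tbx4 summits at 4 of 5 genes and Hoxc10 summits at 3, where like-length genes would give 2.815 and 1.865. Pcdh18, on chromosome 3 from 49743291 to 49757383, is a gene of 14.1 kb in a domain of 1.62 Mb between Pabpc4l and Slc7a11. It held 6 Tbx4 and 4 Hoxc10 summits, and 15% and 7.5% of like-length genes had as many or more. The Hoxc10 summit at 49502544, 241 kb below the gene, scored 44.41, rank 25 of the list and the highest Hoxc10 score of the family. The other Hoxc10 summits lay above the gene, at 49909226 (9.16), 50036175 (9.16) and 50250084 (11.45). These 3 Hoxc10 summits and the 4 Tbx4 summits above the gene lie in the gap to Slc7a11 and count for that gene as well.

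Tbx4 summits stood at both ends of Pcdh18 and around it. The summit at 49743237 (2.94) was 54 bp outside the lower end, and that at 49757485 (2.26, rank 3720) was 102 bp outside the upper end. The highest, at 49929199, scored 8.12 (rank 880) and lay 172 kb above the gene, and the others were at 49558284 (2.94), 50073772 (7.14) and 50094850 (2.26). Tbx4 and Hoxc10 summits were interspersed along the domain and none were shared, the closest pair being 19973 bp apart.

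The summit at the upper end falls in the promoter of Pcdh18, the only promoter of a member in the RefSeq promoter table (build GRCm38.p6, the same assembly as mm10) that holds one. No promoter is listed there for Cdh2, Cdh11 or Cdh13, where the other Tbx4 summits within 1 kb of a gene end lay, so these could not be placed. That table puts Pcdh18 on the minus strand, with its start at 49757316, and the summit is 169 bp before it. The sequence is shown because it is the 1 place where binding of this family meets a promoter with known letters. It covers the 183 bases of the promoter window outside the gene, chr3:49757384-49757566 on the minus strand, 5′ to 3′, with the summit base and 10 bases to each side in capitals.
Pcdh18 promoter: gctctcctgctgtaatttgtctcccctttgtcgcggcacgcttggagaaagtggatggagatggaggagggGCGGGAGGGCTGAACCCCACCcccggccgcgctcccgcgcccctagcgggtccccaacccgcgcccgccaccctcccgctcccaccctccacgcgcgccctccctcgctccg
Of these bases 72.1% are G or C, against a median of 52.4% over the 250 bases before the start in all 32851 promoters of the table. The promoter window, 250 bases before to 50 after the start, was searched on both strands for AGGTGT, the core of T-box sites, and for TTTATG and TTTATT, cores of posterior Hox sites. It held none of the 3. Of all promoters 13.7%, 11.9% and 19.6% held them, and of the 25 promoters listed for 22 of the members 1, 1 and 3 did: AGGTGT at Cdh7, TTTATG at Cdh12, and TTTATT at Cdh9, Cdh23 and Pcdh15. These are matches of letters, not sites, and a missing match says only that the letters are not in the window. Sequences under the other summits are not analysed here.

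Pcdh8, whose product takes part in the formation of boundaries between somites, was the densest of the family. Its domain of 338 kb on chromosome 14, between Cnmd and Olfm4, held 5 Tbx4 summits, and 3% of like-length genes had as many. Their scores ran from 3.67, the median of the list, to 5.3, with the highest at 79740798 (rank 1506), 26.0 kb below the gene. The shared place of Pcdh8 was 200.2 kb above it, within the non-coding gene Gm6999, where the Tbx4 summit at 79971542 (4.46, rank 1883) and the Hoxc10 summit at 79971573 (7.02, rank 868) were 31 bp apart. All these summits lie in gaps and count for Cnmd or Olfm4 as well. Cnmd encodes chondromodulin, a protein of cartilage.

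Pcdh17 and Pcdh10, both studied mainly in the brain, had few summits. Pcdh17 had 2 Tbx4 summits, at 84420046 (3.67) and 85354077 (11.3, rank 543) of chromosome 14, the higher 817 kb above the gene. Pcdh10 had 1 of each factor, Tbx4 at 46036516 (2.94, rank 2939) and Hoxc10 at 45646216 (3.83, rank 1348) of chromosome 3, 390300 bp apart. Pcdh19, on the X chromosome, had none.

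The other protocadherins had at most 1 summit of a factor. Among the 4 delta-1 genes, Pcdh9 had 1 Tbx4 summit inside the gene, at 93570593 of chromosome 14 (4.46, rank 1883), and Pcdh7 had 1 Hoxc10 summit at 58286971 of chromosome 5 (3.83, rank 1348), 154 kb above the gene. Pcdh1 and Pcdh11x had none. Pcdh15, the partner of Cdh23 in the tip link, had 1 of each factor above the gene, Tbx4 at 74826148 (2.94, rank 2939) and Hoxc10 at 74760875 (2.72, rank 1532) of chromosome 10. Pcdh12, an endothelial gene, and Pcdh20 had none. For the 2 members on the X chromosome, Pcdh11x and Pcdh19, the count of 0 says little, since the lists hold only 13 Tbx4 and 3 Hoxc10 summits on that chromosome.

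Summits of the family were mostly remote. Of the 48 Tbx4 summits 27 lay over 100 kb from any end of a protein-coding gene, 56.3% (exact 95% interval 41.2 to 70.5%), against 29.2% of the whole list, and for Hoxc10 it was 17 of 23, 73.9% (51.6 to 89.8%), against 39.2%. Inside a member lay 14 Tbx4 summits, 29.2% (16.95 to 44.1%), and 3 Hoxc10 summits, 13.04% (2.78 to 33.6%), where 46.5% and 38.9% of the lists lay inside some gene. The whole lists are not matched to the members in domain length, with median domains of 1543 kb for members and 67.3 kb for all genes. Longer gaps hold more places far from a gene end, so these differences are no result about the family. The parts of gene spacing and of binding were not tested. Within 1 kb of a gene end stood 5 Tbx4 summits, at Cdh2, Cdh11, Cdh13 and both ends of Pcdh18, and no Hoxc10 summit, that is 10.4% and 0% against 12.8% and 5.02% of the lists. The scores of the 5 ran from 2.26 to 3.67, so that none exceeded the median of the list.

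The scores of the family were ordinary for each list. The median over the 48 Tbx4 summits was 4.46 (quartiles 2.94 and 6.19), and 26 of them, 54.2% (39.2 to 68.6%), exceeded the list's median, as 48.9% of the list did. The median over the 23 Hoxc10 summits was 7.72 (quartiles 5.37 and 9.16), equal to that of the list. Shared places made up 4 of the 23 Hoxc10 summits, 17.4% (4.95 to 38.8%), against 32.1% of the list, and 4 of the 48 Tbx4 summits, 8.33% (2.32 to 19.98%), against 10.9%. With so few summits the intervals reach the shares of the lists.

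**Figure D4:**
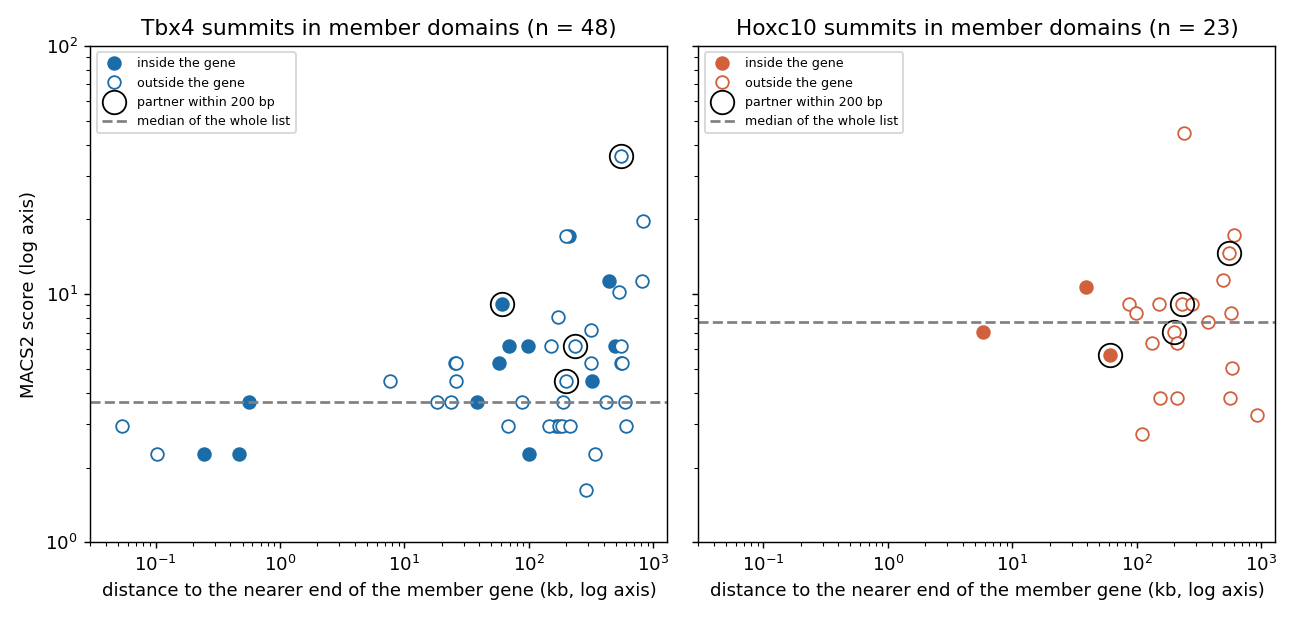
MACS2 score (log axis) against the distance to the nearer end of the member gene (kb, log axis) for the 48 Tbx4 summits (left) and 23 Hoxc10 summits (right) in member domains. Filled points lie inside a member, open points outside, black rings mark summits with a partner within 200 bp and the dashed line is the median of the whole list. Summits cluster at large distances, and the 5 Tbx4 summits within 1 kb of a gene end score at most 3.67.

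Other genes of cadherin adhesion were read in the same way. Of 11 genes for cytoplasmic partners 5 had Tbx4 and 1 had Hoxc10 summits, where like-length genes would give 3.745 and 2.1: Ctnna3, an alpha-catenin, had 6 and 0, Ctnna2 2 and 1, Pkp4 2 and 0, Afdn 1 and 0, and Ctnnb1, the gene of beta-catenin, 2 and 0. Of 25 further genes of the cadherin superfamily 6 had Tbx4 and 2 had Hoxc10 summits, against 5.895 and 2.93, with the most, 3 and 2, at Fat4, a giant cadherin of planar polarity. Its ligand gene Dchs1 had 2 and 0, and none of the 7 desmosomal cadherins in this list had any. Of 6 factors known to control cadherin genes 3 had Tbx4 and 3 had Hoxc10 summits, against 2.015 and 1.14: Zeb2 had 4 and 3, Twist2 3 and 2, Snai1, a repressor of Cdh1, 3 and 0, and Twist1 0 and 2.

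A list of summits measures no expression, so the tissue cannot be checked by the level of its markers. Summits near marker genes were counted only to describe where they lie, and do not show which cell types were present. The marker lists were chosen with earlier results of these data known. Among 8 genes of limb mesenchyme 7 had Tbx4 and 4 had Hoxc10 summits, where like-length genes would give 2.925 and 1.455. These 8 were Prrx1, Prrx2, Twist1, Pdgfra, Msx1, Msx2, Hand2 and Tbx5. Among markers of other cell types the counts were 1 and 0 of 10 for surface ectoderm (1.775 and 0.68), 3 and 2 of 10 for endothelium (2.655 and 1.105), 2 and 1 of 8 for muscle precursors (1.975 and 0.835) and 2 and 0 of 8 for nerve and Schwann cells (1.465 and 0.475).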

How the data were processed

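Per the submitters' processing notes, Bowtie2 2.2.6, MACS2 2.1.1.20160309 and HOMER were used on mouse build mm10. The authors deposited 1-bp summits with the MACS2 score on a −log10 scale, and the sources used here do not give the control library, any pooling or how summits were selected. Gene ends came from a RefSeq table of GRCm38.p6, the assembly of mm10. This gene table gives no strand (a separate RefSeq promoter table gives one for 22 members), so below and above a gene mean lower and higher coordinates. Assignment of summits to domains, distances and shares were computed with Python 3.11.15, numpy 2.4.6, pandas 2.3.3 and scipy 1.17.1, and tested on simulated summits. Percentages over like-length genes are means over the members. Intervals are exact (Clopper-Pearson). Positions are 1-based. The family, gene lists and settings were chosen with earlier results of these data known. Named are all members, with the highest summit of each factor and all shared summits. Reads, and so depth and precision per sample, were not used here.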

Additional observations from a re-analysis of the deposited data

How the results depend on the processing

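No paired analysis was possible because each group has 1 sample. Shorter domains lowered the counts. With at most 100 kb beyond the gene, 12 members had Tbx4, 5 had Hoxc10, 2 had both and 1 had shared summits, with 24 Tbx4 and 5 Hoxc10 summits in all, and the differences from like-length genes turned to -2.97 (Tbx4) and -4.53 points (Hoxc10). With only the gene and 5 kb on either side the numbers were 9, 3, 2 and 1 members, 16 and 3 summits, and -2.04 and -3.9 points. With at most 500 kb the differences were -1.63 and 0.914 points, and with each summit given to the nearest gene 1.09 and 7.43 points. With the higher-scoring 50% of each list 6 members had Hoxc10 and 5 had both, with 26 Tbx4 and 11 Hoxc10 summits, and the differences were 12.4 (Tbx4) and -2.51 points (Hoxc10). With as many Tbx4 summits as the Hoxc10 list has, 11 members had Tbx4 and 4 had both, with 17 Tbx4 summits. The counts fall by construction there; the cause of the changes in sign was not tested. When predicted genes did not end a domain, the members' counts were the same and the differences grew to 17.2 and 15.6 points, since the like-length genes then had summits in 37.07 and 18.73%. Over all settings tried, 19 counts moved by more than 1.5 times and 6 differences changed sign. The other 53 values were counts within 1.5 times the main one or differences of the same sign, whose sizes varied as given. Among them, the Hoxc10 like-length share of 18.73%, when predicted genes did not end a domain, lay just below the members' interval, which starts at 19.1%. Depth is unknown, so a count of 0 is no evidence that a gene was unbound.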

Other observations

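The deserts around these genes held further summits beyond the limit of 1 Mb. In the gaps next to members, but in the domain of no member, lay 15 Tbx4 and 14 Hoxc10 summits, and 6 of each were shared. Of the whole lists, 10.9% of the Tbx4 and 32.1% of the Hoxc10 summits were shared. One pair, 1036 kb from Cdh9 on chromosome 15, had Tbx4 at 15692815 (score 9.15) and Hoxc10 at 15692871 (9.91), 56 bp apart. Pcdh10 on chromosome 3 had 2 such pairs, at 42673682 (Tbx4 11.3) and 42673780 (Hoxc10 8.43), 2705 kb away, and at 41949624 (4.46) and 41949607 (10.67), 3429 kb away. Pcdh9 had 1 at 1970.3 kb, with scores of 17.15 for Tbx4 and 7.72 for Hoxc10, Cdh18 had 1 at 1807 kb, with 6.19 and 7.72, and Pcdh17 had 1 at 4267 kb, with 5.3 and 3.83. These gaps also border other genes, which can be nearer to a pair than the member named. The Cdh9 pair also lies in the gap next to Cdh6, 2516 kb from that gene, and the Pcdh17 pair in the gap between Olfm4 and Pcdh17. Whether any of these summits acts on the gene named is not shown by these data.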
